A study of Homo sapiens with 12 samples.

Results

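The UGT2B genes measured here were UGT2B7, UGT2B10, UGT2B11, UGT2B15, UGT2B17 and UGT2B28, which encode UDP-glucuronosyltransferases of the endoplasmic reticulum. They were taken by gene symbol from the platform annotation, which assigned 11 of the 47323 probes on the array to these 6 genes of 20046 in all. Of these, 9 probes of 5 genes stood above background, by a detection p under 0.05 on at least 3 of the 12 arrays, among 20413 such probes in all. UGT2B7 had no probe above background by this rule.

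The enzymes of this family attach glucuronic acid from UDP-glucuronic acid to small lipophilic molecules, which makes them water soluble and lets cells export them. UGT2B15 and UGT2B17 conjugate dihydrotestosterone and its reduced metabolite androstanediol, and are the main route by which prostate cells inactivate androgen. Both are known to be repressed by androgen in LNCaP cells. UGT2B7 conjugates steroids and many drugs and is abundant in liver, UGT2B28 acts on steroids, UGT2B10 acts on amines such as nicotine, and UGT2B11 has few known substrates.

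LNCaP is an androgen-responsive cell line derived from a lymph node metastasis of a prostate carcinoma. All cells grew for 48 h in steroid-free medium before a treatment of 48 h, with 3 arrays in each of 4 groups. The groups received the vehicles ethanol and DMSO, 10 nM R1881, 100 nM Torin 1, or 10 nM R1881 with 100 nM Torin 1. R1881 is a synthetic androgen that resists metabolism, Torin 1 inhibits the kinase mTOR at its ATP site, and the study asked how mTOR bears on androgen-driven transcription. Nothing in the labels tells whether the 3 arrays of a group came from 3 cultures, and the p-values below thus measure only the spread between these arrays, which may be technical. All results come from 1 cell line, and since each array measured the RNA of a whole culture, fewer cells expressing a gene and less RNA per cell cannot be told apart.

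The 12 arrays detected between 16681 and 18868 probes each, and arrays of the same group correlated with r of at least 0.9911. The labelled treatments showed in genes known to respond to them. With R1881, FKBP5 rose by 3.99 on the log2 scale and TMPRSS2 by 3.80. KLK3, which encodes prostate-specific antigen and was not detected on any vehicle array, was at least 7.81-fold higher, against the lowest level of any detected probe on those arrays. With Torin 1, the mitotic gene CDC20 fell by 4.53. All 8 luminal prostate markers with a probe stood above background, 6 of them on all 12 arrays, whereas the basal markers KRT5, KRT14 and KRT15 did not. Of 7 hepatocyte markers, ALB, TTR, APOA1 and FGA stood above background, 2 of the 4 on all 12 arrays, and APOA2, SERPINA1 and CYP3A4 did not. Of 6 stromal markers, VIM and COL1A1 stood above background and COL1A2, COL3A1, DCN and LUM did not. Of 4 immune markers with a probe, PTPRC and CD68 stood above background and CD14 and CD3E did not. CD68 was 2.59-fold higher with R1881 on ILMN_1714861 (adjusted p = 2.48e-06 by limma). Its brighter probe changed by 0.53 and was not called (0.0823). The summed deposited signal of the 7 hepatocyte markers lay between 708.6 and 762.3 with vehicle and between 671.4 and 818.1 with R1881. That of the 6 stromal markers lay between 753.3 and 837.7 and between 702.3 and 823.2. No background was removed from these sums, and the 3 basal markers, none above background, summed to between 266.1 and 282.2 with vehicle. The sums thus hold much background and measure marker expression only in part.

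The UGT2B genes lie side by side on chromosome 4. In the RefSeq annotation of GRCh38.p14 their order is UGT2B17, UGT2B15, UGT2B10, UGT2B7, UGT2B11 and UGT2B28, with UGT2A3 and many pseudogenes between them. The promoters of UGT2B15, UGT2B10 and UGT2B11 are shown because the first gene fell and the others rose with androgen, although their sequences are related. Each runs 5′ to 3′ on the strand of the gene, from 250 bases before to 50 bases after the RefSeq start, in GRCh38.p14 at chr4:68670603-68670902 on the minus strand for UGT2B15, chr4:68815744-68816043 on the plus strand for UGT2B10 and chr4:69214699-69214998 on the minus strand for UGT2B11. Capitals mark matches to 3 short motifs on either strand, which were chosen after the sequences were seen.
UGT2B15: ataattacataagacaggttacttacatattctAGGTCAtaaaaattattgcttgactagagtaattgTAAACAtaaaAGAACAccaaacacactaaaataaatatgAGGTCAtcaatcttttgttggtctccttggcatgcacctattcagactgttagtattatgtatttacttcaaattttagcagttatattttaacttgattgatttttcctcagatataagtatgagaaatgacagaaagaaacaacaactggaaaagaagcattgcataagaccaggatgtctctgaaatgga
UGT2B10: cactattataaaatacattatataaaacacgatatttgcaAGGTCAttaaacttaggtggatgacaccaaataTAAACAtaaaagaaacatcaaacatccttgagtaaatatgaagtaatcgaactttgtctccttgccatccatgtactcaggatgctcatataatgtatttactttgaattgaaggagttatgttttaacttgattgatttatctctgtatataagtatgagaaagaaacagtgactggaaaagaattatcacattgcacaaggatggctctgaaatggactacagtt
UGT2B11: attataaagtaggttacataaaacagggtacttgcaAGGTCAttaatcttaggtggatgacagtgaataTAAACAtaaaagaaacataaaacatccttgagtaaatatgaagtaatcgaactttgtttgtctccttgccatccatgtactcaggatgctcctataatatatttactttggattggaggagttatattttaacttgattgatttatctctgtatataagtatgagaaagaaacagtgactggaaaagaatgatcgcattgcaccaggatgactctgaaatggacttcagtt
The RefSeq promoter table matched 4 of the 6 genes, these and UGT2B7. UGT2B17 and UGT2B28 are named only.

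The promoters of UGT2B10 and UGT2B11 were identical at 274 of 304 aligned columns, or 90.1%, whereas UGT2B15 shared 67.8% with UGT2B10 and 70.2% with UGT2B11. AGAACA, a hexamer found in steroid hormone response elements, occurred in UGT2B15 at base 79 of the window and in neither of the others, and it occurs in 14.8% of 35116 RefSeq promoters of the same length. AGGTCA, the hexamer of many nuclear receptors, occurred in UGT2B15 at bases 34 and 108, in UGT2B10 at base 41 and in UGT2B11 at base 37, and occurs in 13.8% of promoters. TGTTTA, the core of forkhead sites, read here as TAAACA because it lies on the other strand, began at base 69 in UGT2B15, base 74 in UGT2B10 and base 70 in UGT2B11, and also occurred in UGT2B7. It occurs in 12.3% of promoters. No match overlapped another, and these matches describe letters only, without any measurement of binding.

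R1881 split the measured UGT2B genes into a pair that fell and a trio that rose. UGT2B15 and UGT2B17, the androgen-inactivating pair, fell on all 5 of their probes above background, and UGT2B10, UGT2B11 and UGT2B28 rose on all 4 of theirs. The test was limma's moderated test on log2 signal, with Benjamini-Hochberg adjustment over all 20413 probes and a call at an adjusted p under 0.05, and it called 29.9% of all probes in this comparison, 13.3% as higher and 16.5% as lower. All 9 member probes separated the R1881 arrays from the vehicle arrays without overlap, as did 41.9% of all probes tested. The median change of the 9 probes was -1.56 on the log2 scale against -0.014 for all probes. It describes no common shift, because 5 probes fell and 4 rose, and its sign depends on how many probes each gene has. Levels below are log2 of background-corrected, quantile-normalized signal, given for replicates 1 to 3, and levels of different probes cannot be set against each other.

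**Figure D1:**
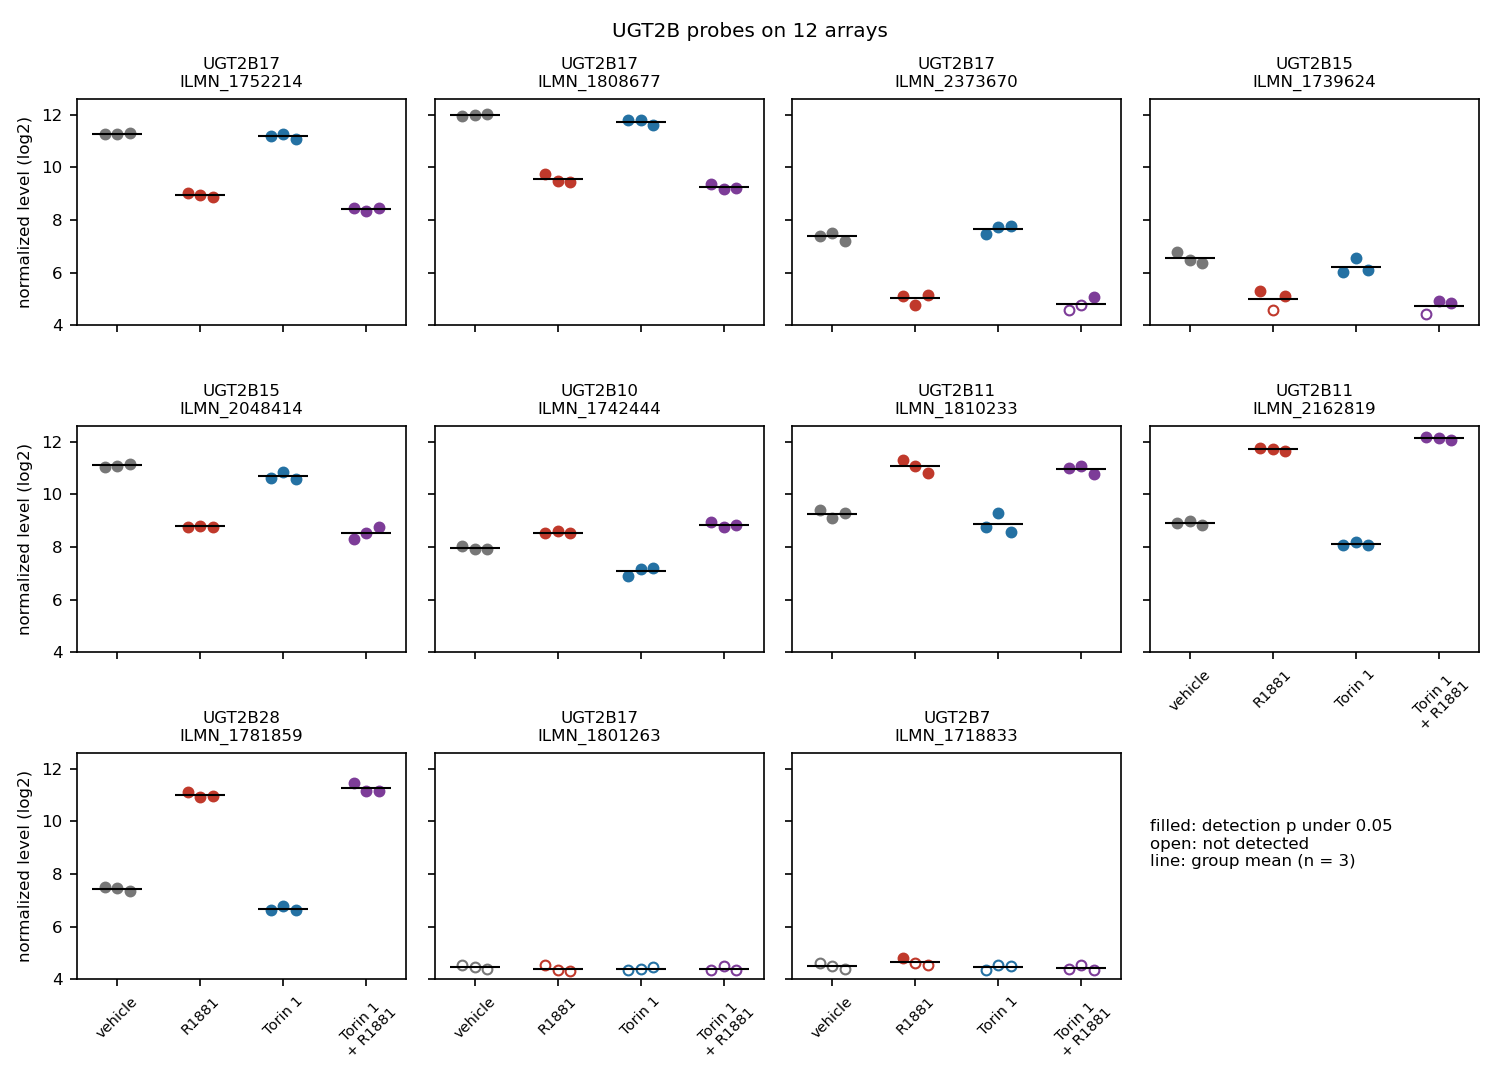
Normalized log2 signal of the UGT2B probes on each of the 12 arrays, by treatment group, with filled points for arrays that detected the probe, open points for those that did not, and a line at the mean of each group. The UGT2B15 and UGT2B17 probes above background sit lower in both groups given R1881, the UGT2B10, UGT2B11 and UGT2B28 probes sit higher there, and the UGT2B7 probe stays between 4.37 and 4.82.

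UGT2B17, the more active of the pair on dihydrotestosterone, was read by 4 probes, of which 3 stood above background. On probe ILMN_1808677 its level was 11.94, 11.97 and 12.01 with vehicle and 9.73, 9.49 and 9.44 with R1881. The R1881 arrays thus lay more than 2 units below every vehicle array. It fell by 2.42 ± 0.096 on the log2 scale (SE), or 5.36-fold, with an adjusted p of 3.49e-10 by limma. In deposited signal, before correction, the means were 4305 ± 243 and 819.5 ± 85.6 (SD, n = 3). Probe ILMN_1752214 read 11.27, 11.25 and 11.29 with vehicle and 9.02, 8.94 and 8.89 with R1881, 5.01-fold lower (adjusted p = 7.64e-11 by limma). The dimmer probe ILMN_2373670 read 7.41, 7.51 and 7.21 and then 5.13, 4.79 and 5.15, 5.11-fold lower (adjusted p = 2.25e-08 by limma), though its log2 change shrank to -1.12 without background correction. With the background correction used here, the log2 changes of the 3 probes, -2.42, -2.32 and -2.35, were close to each other. Without it the first 2 gave -2.3 and -2.15, so the closeness of ILMN_2373670 depends on that correction. Among all 20413 probes the 3 corrected changes were the 20th, 28th and 26th largest falls. The remaining probe, ILMN_1801263, was detected on none of the 12 arrays, with detection p between 0.149 and 0.597 and log2 levels between 4.33 and 4.55, so it carried no measurement of UGT2B17.

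UGT2B15, the other enzyme that conjugates dihydrotestosterone, had 2 probes, both above background. Probe ILMN_2048414 read 11.05, 11.09 and 11.17 with vehicle and 8.77, 8.81 and 8.78 with R1881. Each group spread over a narrow range and no R1881 array came near a vehicle array. It fell by 2.32 ± 0.11 (SE), or 4.98-fold, with an adjusted p of 2.1e-09 by limma, the 29th largest fall of all probes. Probe ILMN_1739624 was much dimmer and fell by 1.56 ± 0.19 (SE), 2.95-fold lower, with an adjusted p of 3.4e-05 by limma. It read 6.78, 6.5 and 6.36 with vehicle and 5.29, 4.58 and 5.1 with R1881, where replicate 2 was not detected (detection p 0.139), so its fold rests in part on a level near background, and its log2 change was -0.64 without background correction.

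UGT2B28 showed the largest change with R1881 among the 9 probes. Its probe ILMN_1781859 read 7.51, 7.48 and 7.35 with vehicle and 11.1, 10.93 and 10.96 with R1881. All R1881 arrays lay above all vehicle arrays by more than 3 units, and the detection p was 0 on every array. The rise was 3.55 ± 0.10 (SE), or 11.7-fold, with an adjusted p of 1.35e-11 by limma, the 21st largest rise of all probes. In deposited signal the means were 274.5 ± 32.3 and 2079 ± 302 (SD, n = 3).

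UGT2B11 rose on both of its probes, by different amounts. Probe ILMN_2162819 read 8.93, 8.99 and 8.83 with vehicle and 11.78, 11.73 and 11.65 with R1881, a rise of 2.80 ± 0.081 (SE) or 6.96-fold (adjusted p = 1.64e-11 by limma) and the 43rd largest. Probe ILMN_1810233 read 9.42, 9.1 and 9.28 and then 11.3, 11.08 and 10.8, a rise of 1.79 ± 0.18 (SE) or 3.46-fold (adjusted p = 3.42e-06 by limma), the 160th largest. The groups did not overlap on either probe, and the arrays of a group spread more on the second.

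UGT2B10 rose least. Its probe ILMN_1742444 read 8.03, 7.92 and 7.92 with vehicle and 8.53, 8.6 and 8.52 with R1881, so all 3 R1881 arrays lay above the vehicle arrays. The rise was 0.59 ± 0.094 (SE) or 1.51-fold, with an adjusted p of 0.000275 by limma, the 1101st largest of all probes, and the rise was 0.39 on the log2 scale in the authors' processed values. UGT2B7, the hepatic enzyme, had 1 probe, ILMN_1718833, detected on 1 of 12 arrays (R1881 replicate 1, detection p 0.0273). Its signal lay between 93.35 and 108.6, and its log2 changes in the 6 comparisons, without the filter, lay between -0.24 and 0.17 with no adjusted p below 0.086 by limma. No rise or fall of UGT2B7 was detectable at this signal.

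The coding sequences of UGT2B genes are close to each other, UGT2B15 with UGT2B17 and UGT2B10 with UGT2B11 and UGT2B28 most of all, so a probe named for 1 gene may also bind the RNA of a near copy. The probe sequences were not used here, and the share of each signal that came from a near copy was not tested. Over the 12 arrays, the UGT2B11 probe ILMN_2162819 correlated with the UGT2B28 probe at r = 0.998. With the other UGT2B11 probe its r was 0.974, and these correlations mainly follow the 4 groups. Opposite directions on probes of the 2 groups, such as the log2 changes of -2.42 on the UGT2B17 probe ILMN_1808677 and 3.55 on the UGT2B28 probe, mean that these signals did not come from the same RNA in equal parts. UGT2B15 against UGT2B17, and UGT2B10, UGT2B11 and UGT2B28 among themselves, cannot be told apart in the same way where they moved together.

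Torin 1 alone, in cells without androgen, lowered UGT2B10, UGT2B28 and 1 of the 2 UGT2B11 probes. Of the 5 UGT2B15 and UGT2B17 probes, 1 of UGT2B15 was called lower. Of the 9 probes, 4 were called lower, 0 higher and 5 were not called by limma, beside 11.7% lower, 13% higher and 24.7% in either direction among all probes. On 5 of 9 probes the groups did not overlap, against 40.2% of all probes. The probe medians were -0.39 for the members and 0.02 for all probes. Some markers of other cell types also moved with Torin 1. Of the 2 stromal markers above background, VIM was 1.34-fold higher (adjusted p = 0.00268 by limma) and COL1A1 was not called (0.984). The summed deposited signal of the 6 stromal markers, which includes background, lay between 867 and 888.7, above every vehicle array. CD68 was 1.34-fold lower on ILMN_1714861 (adjusted p = 0.03 by limma) and was not called on its brighter probe (0.175). The 7 hepatocyte markers summed to between 743.3 and 778.5, which overlapped vehicle. APOA1, not detected on any vehicle array, was at least 1.36-fold higher (adjusted p = 0.000822 by limma for its change of 0.58 without this bound). ALB was 1.24-fold lower (adjusted p = 0.0289 by limma). The part of these markers in the UGT2B values was not tested.

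The deepest fall was that of UGT2B10, which read 6.92, 7.16 and 7.21 with Torin 1. All 3 values lay below the vehicle arrays, and the level fell by 0.86 ± 0.094 (SE), or 1.82-fold (adjusted p = 2.03e-05 by limma). UGT2B11 probe ILMN_2162819 read 8.07, 8.19 and 8.07, 1.75-fold lower than vehicle (adjusted p = 9.03e-06 by limma). Its other probe, ILMN_1810233, read 8.78, 9.31 and 8.56, which overlapped the vehicle arrays because of replicate 2, and its change of -0.39 was not called (95% interval -0.77 to -0.01, adjusted p = 0.129 by limma). That probe was called without Torin 1 replicate 2, at -0.60 with an adjusted p of 0.0154, and with median scaling, at -0.54 with an adjusted p of 0.027. UGT2B28 read 6.62, 6.78 and 6.65, below all vehicle arrays and 1.7-fold lower (adjusted p = 0.000113 by limma), a log2 change of -0.76 that was -0.47 without background correction.

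In the androgen-inactivating pair the changes with Torin 1 alone were small. UGT2B15 probe ILMN_2048414 read 10.63, 10.84 and 10.59 and was called, at 1.33-fold lower (adjusted p = 0.0136 by limma), but the call was lost without vehicle replicate 3 (adjusted p = 0.0516) or Torin 1 replicate 3 (adjusted p = 0.0595). The dim UGT2B15 probe changed by -0.32 (95% interval -0.74 to 0.09) and was not called. The UGT2B17 probes gave -0.09 (-0.26 to 0.08), -0.24 (-0.44 to -0.03) and 0.29 (-0.01 to 0.6), with adjusted p of 0.449, 0.0874 and 0.158 by limma. None was called, they differed in sign, and no interval reached the size of the fall with R1881. The UGT2B17 probe ILMN_1808677 was called lower, and ILMN_2373670 higher, with a background offset of 50 (adjusted p = 0.0337 and 0.0458), without background correction (0.0223 and 0.0348) and in the authors' processed values (0.0096 and 0.0216).

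R1881 kept its direction on every measured UGT2B probe when Torin 1 was present. Against Torin 1 alone, the 4 probes of UGT2B10, UGT2B11 and UGT2B28 were called higher and the 5 of UGT2B15 and UGT2B17 lower, and on all 9 the groups did not overlap. Among all probes 36.7% were called, 16% higher and 20.8% lower, and 46.6% did not overlap. UGT2B28 read 11.47, 11.17 and 11.15 with both drugs, 23.9-fold above Torin 1 alone (adjusted p = 6.64e-13 by limma), the 14th largest rise of all probes. UGT2B11 probe ILMN_2162819 read 12.19, 12.14 and 12.06, 16.2-fold above Torin 1 alone (adjusted p = 2.99e-13 by limma), and ILMN_1810233 read 10.99, 11.08 and 10.79, 4.2-fold above. UGT2B10 read 8.96, 8.75 and 8.84, 3.37-fold above (adjusted p = 4.56e-09 by limma). No array with both drugs came down to the level of an array with Torin 1 alone on these probes.

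The fall of UGT2B17 under Torin 1 was 5.57-fold on ILMN_1808677, 6.8-fold on ILMN_1752214 and 7.28-fold on ILMN_2373670 (largest adjusted p = 1.97e-09 by limma). With both drugs these probes read 9.35, 9.19 and 9.23, then 8.44, 8.35 and 8.45, then 4.59, 4.76 and 5.07. The last probe was detected on 1 of these 3 arrays, so its fold rests in part on levels near background. UGT2B15 fell 4.43-fold on ILMN_2048414, which read 8.31, 8.55 and 8.76 with both drugs (adjusted p = 2.79e-09 by limma), and 2.78-fold on ILMN_1739624, which read 4.45, 4.93 and 4.86 and was not detected on replicate 1 (detection p 0.304). Without background correction the log2 changes of ILMN_2373670 and ILMN_1739624 were -1.39 and -0.55 in place of -2.86 and -1.48. Against vehicle, both drugs together again gave 4 probes higher and 5 lower, beside 20.2% and 22.9% of all probes (43.1% in either direction), and no overlap on any of the 9, beside 51.7% of all probes, with folds from 1.86 for UGT2B10 to 14.1 for UGT2B28.

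Set beside R1881 alone, the addition of Torin 1 moved the UGT2B genes by less than 1.5-fold. Of 9 probes, 2 were called higher, 2 lower and 5 not called, where 38.1% of all probes were called, 19.7% higher and 18.4% lower. The groups did not overlap on 6 of 9, against 47% of all probes. UGT2B11 rose 1.33-fold on ILMN_2162819 (adjusted p = 0.00119 by limma), while ILMN_1810233 changed by -0.11 (95% interval -0.49 to 0.27). UGT2B10 rose 1.23-fold (adjusted p = 0.0226 by limma), a call that was lost without R1881 replicate 1 (0.0585), without R1881 replicate 3 (0.0602), without replicate 1 of both drugs (0.0898) and with median scaling (0.203). UGT2B28 changed by 0.27 (0.05 to 0.48, adjusted p = 0.0526 by limma), just short of a call, with no overlap. It was called without R1881 replicate 1 (0.0431) or replicate 3 of both drugs (0.0408), and also with cyclic loess (0.0237), an offset of 50 (0.0178), no background correction (0.0117), a filter for detection on all 3 arrays of a group (0.0416) or 1 probe per gene (0.0395).

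UGT2B17 was lower with both drugs than with R1881 alone on ILMN_1752214, by 1.45-fold (adjusted p = 0.000115 by limma), and on ILMN_1808677, by 1.23-fold (adjusted p = 0.0255). The second call was lost without R1881 replicate 1 (0.112), without replicate 2 (0.0852) or 3 (0.0674) of both drugs, and when the R1881 and both-drug arrays were fitted alone (0.0617). The UGT2B17 probe ILMN_2373670 changed by -0.22 (95% interval -0.52 to 0.08) and was not called. The UGT2B15 probes changed by -0.25 (-0.48 to -0.01) and -0.24 (-0.66 to 0.18) and were not called, and the first was called without replicate 3 of both drugs (adjusted p = 0.0204).

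Whether the androgen response itself differed with Torin 1 was tested by the interaction, the log2 response to R1881 under Torin 1 less that without it. The response of UGT2B10, UGT2B28 and 1 of the 2 UGT2B11 probes was larger under Torin 1. Of the 9 probes, 3 were called with a positive interaction and 1 with a negative one, where 10.2% of all probes were called, 5.5% positive and 4.67% negative. UGT2B11 probe ILMN_2162819 gave 1.22 (95% interval 0.97 to 1.47, adjusted p = 2.26e-05 by limma), UGT2B10 gave 1.16 (0.87 to 1.44, 0.000115) and UGT2B28 gave 1.03 (0.72 to 1.34, 0.000525). These were the 103rd, 114th and 161st highest interactions of all probes. In each of the 3, most of the interaction lay in the lower level with Torin 1 alone, which gave 0.81, 0.86 and 0.76 log2 units of it, and the rest in the higher level with both drugs. UGT2B11 probe ILMN_1810233 gave 0.28 (-0.26 to 0.82) and was not called, and its interval did not reach that of the other UGT2B11 probe (the difference between the probes was not tested).

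The androgen-inactivating pair gave no common result. UGT2B17 probe ILMN_1752214 had a negative interaction of -0.44 (95% interval -0.68 to -0.21, adjusted p = 0.0217 by limma), a larger fall under Torin 1. That call was lost with median scaling (adjusted p = 0.169), without Torin 1 replicate 2 (0.054) and without replicate 2 of both drugs (0.0545). The other UGT2B17 probes gave -0.06 (-0.35 to 0.23) and -0.51 (-0.94 to -0.08) and were not called. UGT2B15 gave 0.17 (-0.17 to 0.5) and 0.08 (-0.51 to 0.67), and neither was called. The comparisons with R1881 alone and with Torin 1 alone share arrays with the interaction, so their values are not independent of it.

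**Figure D2:**
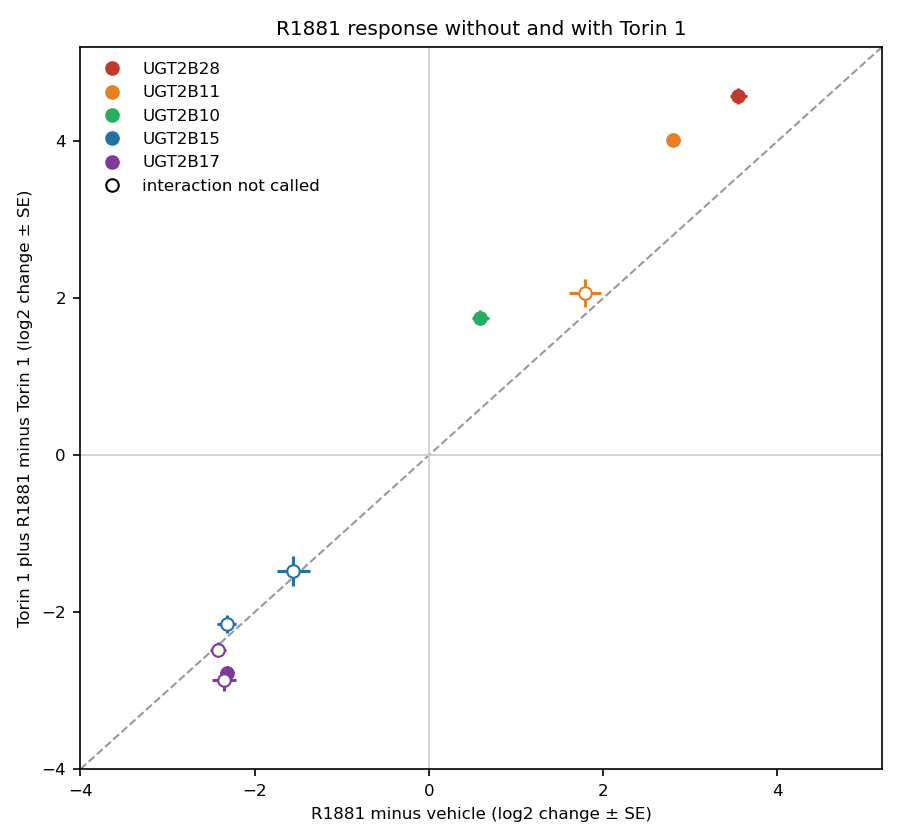
Log2 response to R1881 without Torin 1 (horizontal axis) and with it (vertical axis) for the 9 UGT2B probes above background, each with its SE, where filled points have a called interaction and the dashed line marks equal responses. UGT2B10, UGT2B28 and 1 UGT2B11 probe lie above the line by 1.16, 1.03 and 1.22. The UGT2B15 and UGT2B17 probes lie nearer it, with 1 UGT2B17 probe called at -0.44 and another, at -0.51, not called.

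**Figure D3:**
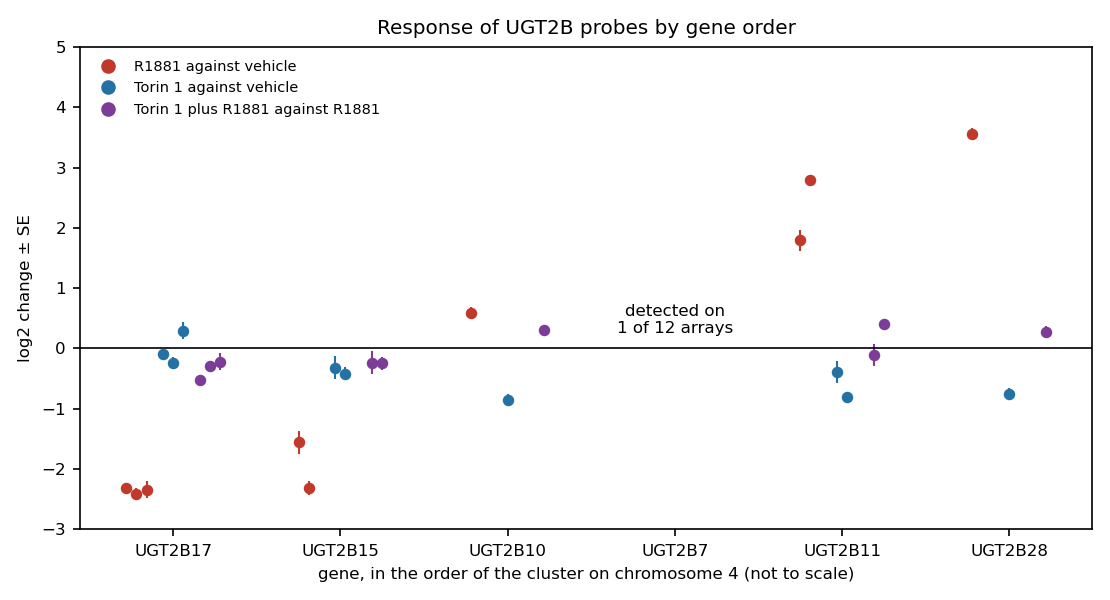
Log2 change and SE of the UGT2B probes for R1881 against vehicle, Torin 1 against vehicle and both drugs against R1881, by gene in the order along chromosome 4 (not to scale). With R1881 the neighbours UGT2B17 and UGT2B15 at one end lie below 0 and UGT2B10, UGT2B11 and UGT2B28 above it, while the changes in the other comparisons lie between -0.86 and 0.41.

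Other genes of glucuronidation were measured in part. Of 16 other UDP-glucuronosyltransferase genes with 22 probes, 2 had a probe above background, UGT1A3 and UGT2B4, and with R1881 0 of the 2 were called at all, beside 34.6% of 11517 genes called, 14.6% higher and 20% lower, when each gene was read by its brightest probe. UGT1A genes share most of their transcript, so the UGT1A3 probe may read other UGT1A RNA. With both drugs against R1881 alone, 2 of the 2 were called higher. UGT1A3 was 1.29-fold higher (adjusted p = 0.0333 by limma), at mean log2 levels of 5.45 and 5.09, near background. The bile-acid enzyme UGT2B4 was 1.57-fold higher on ILMN_1805003 (adjusted p = 0.0101 by limma). Its mean log2 levels there, 5.67 and 5.03, lay near background. In this comparison 43.1% of genes were called, 21.9% higher and 21.2% lower. The other UGT2B4 probe changed by -0.11 (adjusted p = 0.624 by limma). In the supply of UDP-glucuronic acid and the export and cleavage of conjugates, 7 of 12 genes were measured. With R1881 1 rose, 1 fell and 5 were not called, with a median of 0.01 against -0.034 for all genes, a share called near that over all genes. The gene that rose was ABCC4, an exporter of organic anions including steroid conjugates, 3.77-fold (1.91 ± 0.10 on the log2 scale, adjusted p = 5.34e-09 by limma). The gene that fell was GUSB, the lysosomal enzyme that cleaves glucuronides, 1.25-fold lower (adjusted p = 0.00481). UGDH, which makes UDP-glucuronic acid, changed by -0.07 with R1881 (adjusted p = 0.606) and was 1.27-fold lower with both drugs than with R1881 alone (adjusted p = 0.00502). With Torin 1 alone 2 of the 7 rose and 0 fell, beside 14.5% and 14.1% of genes (28.6% in either direction). They were PGM1, which makes glucose 1-phosphate, at 1.19-fold (adjusted p = 0.0319 by limma), and ABCC4 at 1.23-fold (adjusted p = 0.0457). The other ABCC4 probe was 1.44-fold higher (adjusted p = 0.00141 by limma).

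**Figure D4:**
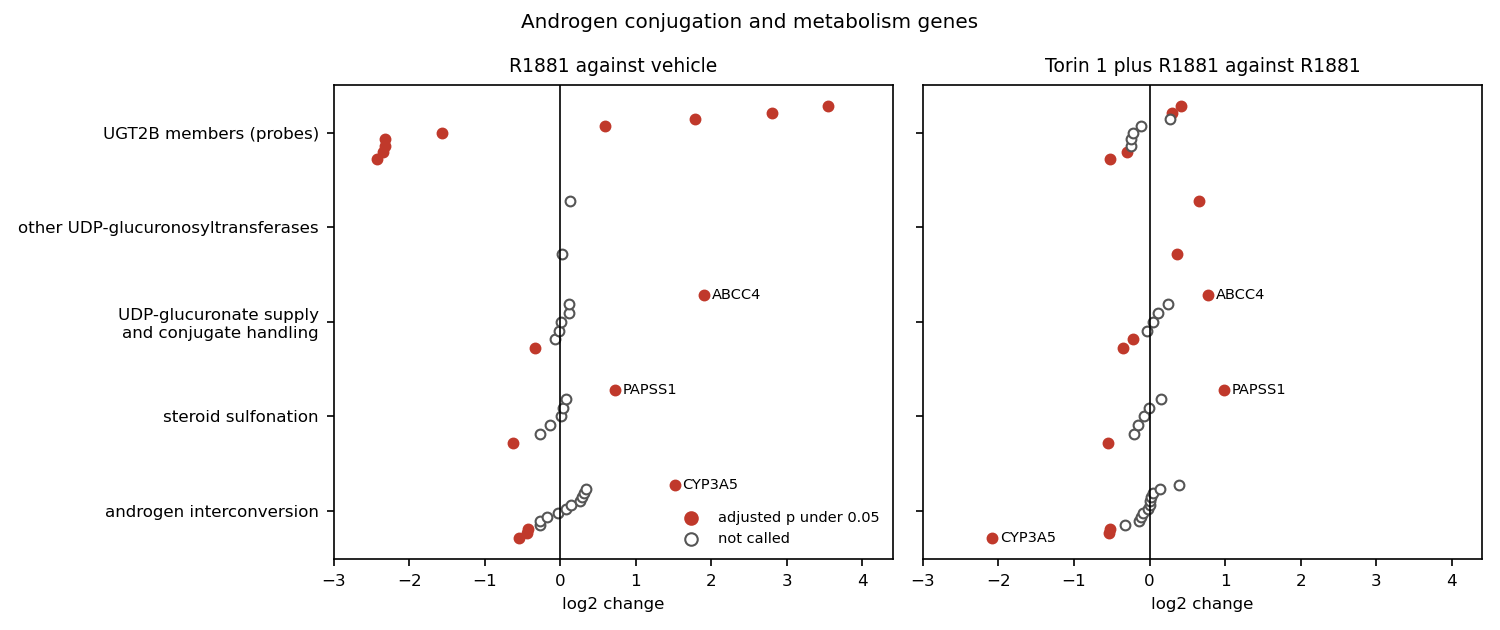
Log2 change of each UGT2B probe above background and of each measured gene in 4 lists of related genes, read by its brightest probe, for R1881 against vehicle (left) and both drugs against R1881 (right), with filled points where the adjusted p was under 0.05. With R1881 the UGT2B probes lie between -2.42 and 3.55, and most other genes lie within 1 unit of 0, apart from ABCC4 at 1.91 and CYP3A5 at 1.52.

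The other routes of androgen handling were also measured. In steroid sulfonation 7 of 10 genes were measured, and with R1881 1 rose and 1 fell, beside 14.6% of all genes higher and 20% lower. PAPSS1, which makes the sulfate donor, rose 1.65-fold (adjusted p = 0.00018 by limma) and was a further 1.97-fold higher with both drugs (adjusted p = 1.09e-05). SULT2B1, a hydroxysteroid sulfotransferase, fell 1.55-fold on ILMN_1727589 (adjusted p = 0.000518 by limma). That probe lay near background, at a mean log2 level of 5.46 with vehicle and 4.83 with R1881, though detected on all 3 arrays of each. The other SULT2B1 probe changed by 0.23 and was not called. In androgen interconversion 14 of 21 genes were measured, of which 1 rose with R1881, 3 fell and 10 were not called, with a median of 0.02. That is near the 34.6% called over all genes. CYP3A5, a steroid hydroxylase, rose 2.86-fold (adjusted p = 7.69e-06). AKR1C2, which reduces dihydrotestosterone, fell 1.35-fold (adjusted p = 0.00824) and was detected on 2 of 3 R1881 arrays. AKR1C3, which reduces androstenedione to testosterone, was detected on 2 of 3 vehicle arrays and on 0 with R1881. With R1881 it was at least 1.06-fold lower (adjusted p = 0.000582 by limma for its change of -0.54 without this bound). AKR1C4 was detected on 3 vehicle arrays and on 0 with R1881, at least 1.11-fold lower (adjusted p = 0.0213 by limma for its change of -0.44 without the bound). AKR1C genes are near copies of each other, so these probes may share RNA.

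The androgen response of CYP3A5 was smaller under Torin 1, opposite in sign to the called interactions of UGT2B10, UGT2B28 and the UGT2B11 probe ILMN_2162819. Its interaction was -1.61 (adjusted p = 0.000643 by limma), and it was 4.24-fold lower with both drugs, where it was detected on 1 of 3 arrays, than with R1881 alone. With Torin 1 alone it was detected on 2 of 3, so these values rest in part on levels near background. PAPSS1 had a positive interaction of 0.76 (adjusted p = 0.00672) and ABCC4 one of 0.49 (adjusted p = 0.0441), the latter not called on its other probe (0.27, adjusted p = 0.254). Of the factors known to act on UGT2B genes, 3 of 10 were measured. CEBPA, a liver-enriched factor, fell 1.24-fold with R1881 (adjusted p = 0.0241), and FOXA1, a forkhead factor that opens chromatin, changed by -0.19 with R1881 (adjusted p = 0.082) and was 1.45-fold higher with both drugs than with R1881 alone (adjusted p = 7.95e-05). The part that any of these genes had in the UGT2B values was not tested.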

How the data were processed

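Illumina HumanHT-12 V4 arrays, 12 in all, measured RNA from 4 groups of LNCaP cells, per the labels. The deposited table holds, per the file headers, a signal intensity and a detection p-value for each of 47323 probes. Its intensity values are neither normalized nor background-subtracted. The authors also deposited a processed table on the log2 scale, and the sources used here do not give its normalization. Probe symbols come from the platform annotation.

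The deposited intensity was corrected with normexp in limma 3.58.1 (R 4.3.3), with an offset of 16 and the background taken from the detection p-values, then quantile normalized and log2 transformed. Probes detected at p under 0.05 on at least 3 arrays were kept. A limma model with 4 group means and 8 residual degrees of freedom was fitted to all 20413 kept probes, with Benjamini-Hochberg adjustment within each comparison. Intervals are 95% intervals of that model. The number of arrays limits the precision. Permuting 3 arrays against 3 cannot give a p under 0.1, so no single-probe permutation was run. No kept member probe was undetected on all 3 arrays of a group, so no member fold is a bound. For other genes undetected on all 3 arrays of a group, a lower bound of the fold is printed, with each such array set to the lowest level at which it detected a probe, or to the probe's own level where higher. An adjusted p printed beside a bound tests the change without it.

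Every probe of the 6 genes is reported. Other genes are named where a list member was called, up to 4 per list by smallest adjusted p, or among the 5 genes most alike a member, and a list gene is read by its brightest kept probe. The members and lists were chosen with earlier results of these data known. No pair of arrays was identical. Arrays of the same replicate number did not deviate together (mean r -0.00842, against 0.00419 for other numbers), and the model has no block for the number. Promoters were aligned with Biopython 1.88, with match 1, mismatch -1, gap opening -3 and gap extension -0.5. Alternatives were other scalings, background settings, filters, the authors' table, 1 probe per gene, fewer groups, a replicate block and leaving out each array.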

Additional observations from a re-analysis of the deposited data

Results flagged for a closer look

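The response to R1881 differed between cells with and without Torin 1, by limma's test of the difference itself, on 4 member probes. UGT2B11 (ILMN_2162819) responded by 2.80 on the log2 scale without Torin 1 and by 4.02 with it, a difference of 1.22 (adjusted p = 2.26e-05). UGT2B10 responded by 0.59 and 1.75, a difference of 1.16 (adjusted p = 0.000115). UGT2B28 responded by 3.55 and 4.58, a difference of 1.03 (adjusted p = 0.000525). UGT2B17 (ILMN_1752214) responded by -2.32 and -2.77, a difference of -0.44 (adjusted p = 0.0217). The other kept probes of UGT2B11 and UGT2B17 did not pass this test.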

How the results depend on the processing

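The 54 changes of the 9 member probes were recomputed under up to 22 alternatives each, which gave 1155 values. Of these, 1126 kept their direction and their side of the threshold, 13 lost the call, 16 gained one and 0 reversed. Every call for R1881 against vehicle, for both drugs against Torin 1 and for both drugs against vehicle was kept in these runs. The calls that changed concern the small effects of Torin 1 and are given with the results. The cause was not tested, except where fewer arrays or probes entered.

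With 1 probe per gene, the member probes called lower numbered 2 instead of 5 for R1881 against vehicle, for both drugs against Torin 1 and for both drugs against vehicle, 1 instead of 2 for both drugs against R1881, and 0 instead of 1 for the interaction, since fewer probes were tested. The probes called for both drugs against vehicle then numbered 5853 instead of 8800. With median scaling, the interaction had 1021 calls over all probes instead of 2076 and 0 negative member probes, and both drugs against R1881 had 1 member probe higher instead of 2. With an offset of 50, no background correction or the authors' table, 1 member probe instead of 0 was higher with Torin 1. With 2 groups in the fit, 1 member probe instead of 2 was lower with both drugs than with R1881. Leaving out 1 array at a time gave 1 to 3 probes higher and 1 to 2 lower for both drugs against R1881, and 0 to 1 negative interactions. Over all probes it gave 5061 to 6079 calls for R1881 against vehicle and 1561 to 1769 for the interaction. The replicate block gave 5821 calls for R1881 against vehicle beside 6095 without it, and changed no member call.

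Median scaling moved the median of all probes for R1881 against vehicle from -0.014 to -0.144, and the share of calls that were higher from 44.7% to 20.3%. For the other comparisons that share went from 52.5% to 30.9% for Torin 1 against vehicle and from 51.7% to 44.9% for both drugs against R1881. It went from 43.5% to 27.8% for both drugs against Torin 1, from 47% to 23.7% for both drugs against vehicle and from 54% to 69% for the interaction. Dim probes limit size more than direction. The fall of the UGT2B15 probe ILMN_1739624 with R1881 ranged from -1.76 to -0.64 on the log2 scale, and that of the UGT2B17 probe ILMN_2373670 from -2.56 to -1.12, smallest where no background was removed.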

Other observations

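The genes outside the family whose levels over the 12 arrays were most like those of a member are given as a description, since the 12 arrays fall into 4 groups that the correlation mainly follows. For UGT2B28 they were MTMR9, MAF, FKBP5, KRT8 and ODC1, with Pearson r between 0.9934 and 0.995. For UGT2B11 they were MTMR9, SOCS2, ENDOD1, ODC1 and WIPI1, between 0.9936 and 0.9968, so MTMR9 and ODC1 stood on both lists. For UGT2B10 they were ATAD2, RMC1, TSPAN13, IDI1 and TRPM4, between 0.9762 and 0.9885. For UGT2B17 they were COLCA1, CYB561A3, BARD1, MAP3K8 and PITX1, between 0.9945 and 0.9958. For UGT2B15 they were ABCA1, ME2, PITX1, SERPINI1 and CBLN2, between 0.9923 and 0.9942, so PITX1 stood on both lists of the androgen-inactivating pair.

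Torin 1 alone lowered 4 of 14 measured genes of androgen interconversion and raised 0, beside 14.1% of all genes lower and 14.5% higher, with a median of -0.11 against 0.018 for all genes. Over all genes 28.6% were called in either direction, a share near that of this list. The 4 lower genes were AKR1C2, which inactivates dihydrotestosterone (-0.47, adjusted p = 0.0072 by limma), HSD17B10 (-0.44, 0.00953), HSD17B4 (-0.63, 0.0223) and CYP3A5 (-0.48, 0.0457). CYP3A5 was detected on 2 of 3 Torin 1 arrays. AKR1C2 lay near background, at a mean log2 level of 5.3 with vehicle and 4.84 with Torin 1, though detected on all 3 arrays of each. HSD17B10 was also lower on its other kept probe (-0.35, adjusted p = 0.0218 by limma).

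HSD17B11, which oxidises androstanediol, was read by a pair of probes. ILMN_1675117, the dimmer, rose by 0.80 with R1881 (adjusted p = 0.001 by limma) and ILMN_1735367 was not called. The gene was named after its values were seen.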
